A study of Mus musculus with 6 samples.

Results

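The genes described here carry out DNA replication and mitosis. The list named 55 genes by function, 29 that act at the start of or during S phase and 26 that act in mitosis, with no threshold on a measured value. Whole kidneys of E18.5 mouse embryos were profiled on 6 Illumina MouseWG-6 v2.0 arrays, 3 with FoxD1GC;Dicerfl/fl kidneys and 3 with Cre-negative littermate control kidneys, and each of 3 litters gave 1 pool of 2 embryos per genotype. In the mutant, an eGFP-Cre fusion protein made from the FoxD1 locus deletes part of the floxed Dicer gene in the renal stroma and its descendants, so that miRNAs are no longer made there. The Cre allele is also expressed in podocytes, so the deletion need not be confined to the stroma. The FoxD1GC line was kept on a 129-Elite and the floxed Dicer line on a C57BL/6J background, and the embryos came from crosses of both. The control embryos lack Cre, and their Dicer alleles are not given in the sources used here. The genotypes thus differ in the FoxD1 allele as well as in Dicer, and the whole kidney was measured, not the stroma alone. In bulk kidney RNA, fewer cells of a type and less RNA per cell cannot be told apart, which holds for every level below.

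A cell that is going to divide first licenses its replication origins, when Cdc6 and Cdt1 load the ring of Mcm2 to Mcm7 onto DNA. Cyclin E with Cdk2 then fires the origins, and the replication fork, with its helicase, primase, clamp and ligase, copies the genome. Later, cyclin B with Cdk1 drives the cell into mitosis, the spindle checkpoint holds it until every chromosome is attached, and Cdc20 with the anaphase promoting complex lets the chromosomes part. Most of these genes are transcribed mainly in cycling cells, the S phase genes largely through E2F factors and the mitotic genes later, through the MuvB complex with B-Myb and Foxm1, so that their messages are widely used as a measure of proliferation. In the fetal kidney the nephron progenitors, the ureteric tips and the stroma all divide.

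Promoters of 4 members are shown to place these groups, because the sites by which E2F and the MuvB complex reach DNA are written in them. The sequences are from RefSeq (GRCm38.p6), start 250 bases before the annotated transcription start and end 30 bases after it, on the strand of the gene, and capitals mark 3 kinds of motif. The E2F motif was searched as TTTGGCGC, TTTCGCGC or TTTCCCGC, the cell cycle homology region (CHR), the site of the MuvB complex, as TTTGAA or TTCGAA, and the site of NF-Y as CCAAT, each on both strands, and none of these strings contains another. Mcm3 and Mcm6 encode subunits of the helicase, Cdk1 the mitotic kinase and Cenpa the histone that marks the centromere. The printed stretches are chr1:20820283-20820562 (minus strand) for Mcm3, chr1:128359676-128359955 (minus strand) for Mcm6, chr10:69352883-69353162 (minus strand) for Cdk1 and chr5:30666636-30666915 (plus strand) for Cenpa.
Mcm3: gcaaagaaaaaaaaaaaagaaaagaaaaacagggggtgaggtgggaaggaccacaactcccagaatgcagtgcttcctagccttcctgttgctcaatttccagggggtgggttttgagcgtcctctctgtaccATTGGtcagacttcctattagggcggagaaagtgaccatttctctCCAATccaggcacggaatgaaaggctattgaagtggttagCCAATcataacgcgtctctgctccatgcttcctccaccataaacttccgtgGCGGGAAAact
Mcm6: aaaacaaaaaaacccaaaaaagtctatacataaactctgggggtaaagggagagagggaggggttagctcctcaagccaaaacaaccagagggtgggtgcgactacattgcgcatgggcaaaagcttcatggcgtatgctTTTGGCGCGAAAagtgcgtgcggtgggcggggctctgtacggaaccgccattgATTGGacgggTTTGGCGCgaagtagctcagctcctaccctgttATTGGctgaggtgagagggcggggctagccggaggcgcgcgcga
Cdk1: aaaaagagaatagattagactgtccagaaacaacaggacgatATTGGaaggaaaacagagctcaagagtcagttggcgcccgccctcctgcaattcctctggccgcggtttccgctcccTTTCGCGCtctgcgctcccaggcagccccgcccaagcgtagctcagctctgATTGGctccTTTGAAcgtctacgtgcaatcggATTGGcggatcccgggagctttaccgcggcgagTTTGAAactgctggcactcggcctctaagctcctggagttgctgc
Cenpa: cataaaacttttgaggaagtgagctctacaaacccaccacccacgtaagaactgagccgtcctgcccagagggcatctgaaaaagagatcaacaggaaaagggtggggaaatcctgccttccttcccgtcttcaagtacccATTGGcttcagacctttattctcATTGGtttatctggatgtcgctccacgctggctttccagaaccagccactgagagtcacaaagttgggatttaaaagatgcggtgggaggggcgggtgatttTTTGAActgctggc

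Mcm6 held 3 matches to the E2F motif, of which 2 overlapped on opposite strands, and Mcm3 held 2, 1 of them past the printed stretch. Cdk1 had 2 CHR matches, 1 E2F match and 3 CCAAT boxes, and Cenpa had 1 CHR match and 2 CCAAT boxes. Of the 55 members, 45 had a promoter in the table. In the full windows of 300 bases (250 before and 50 after the start), the E2F motif was found in 9 of the 25 S phase members, in 1 of the 20 mitotic members and in 1.9% of 27025 genes. The CHR motif was found in 5 of 25 S phase members and in 15 of 20 mitotic members, against 19.4% of all genes. CCAAT boxes were present in 14 of 25 S phase members, 17 of 20 mitotic members and 37.9% of all genes. Among the 8039 genes with a promoter that were also tested on the arrays, the shares were 3.6% (E2F), 13.6% (CHR) and 39.2% (CCAAT). A match is a run of letters and not a measured binding site.

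**Figure D1:**
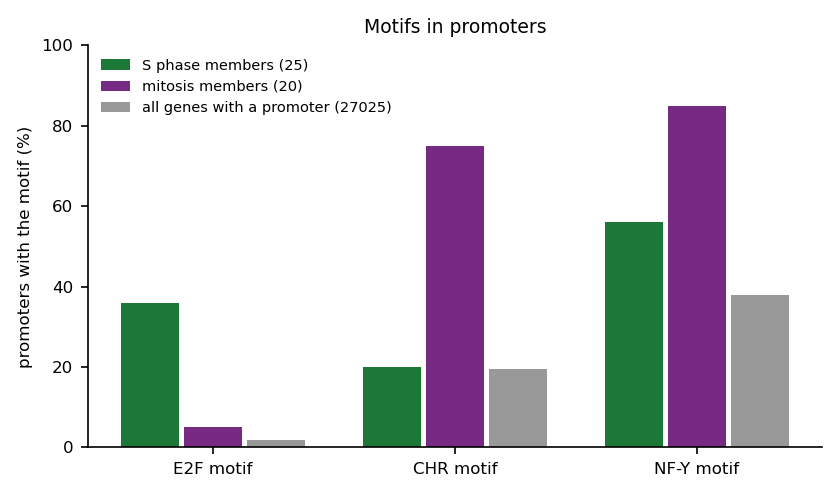
Share of promoters (%, bars from 0) that held an E2F, CHR or NF-Y motif on either strand, in S phase members (25 genes), mitotic members (20 genes) and all genes with a promoter (27025 genes). The E2F motif was found in 36.0% of S phase and 5.0% of mitotic members, and the CHR motif in 20.0% of S phase and 75.0% of mitotic members.

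Of the 55 members, 53 had a probe under their name on the array and 47 were tested, 28 of S phase and 19 of mitosis. A gene was tested when its probe was detected, that is, had a detection p under 0.01 against the negative-control beads, on at least 3 of the 6 arrays, and it is represented by its brightest such probe. Mki67 and Ccnb1, cyclin B, had no named probe and were not analysed here. Pola1, Ccnb2, Cenpe and Bub1 were detected on no array, Ccna2 on 1 control array and 1 of the Ttk probes on 1 mutant and 1 control array, so these 6 genes were not tested. The tested set thus held the kinase Cdk1 and none of its cyclins A2, B1 and B2. Of the 47 tested members, 44 were detected on all 6 arrays, and 1, Kif20a, entered through the mutant pools alone, with 3 of 3 mutant and 0 of 3 control arrays.

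DNA replication and mitosis genes differed little between FoxD1GC;Dicerfl/fl and control kidneys. Of the 47 tested members, 0 passed an adjusted p of 0.05 in limma, against 5.56% of the 9921 genes tested, and 0 had a B-statistic above 0. At an unadjusted p under 0.05 there were 4 members, Mcm3, Mcm6, Rfc3 and Cenpa, against 20.2% of all tested genes. The changes, on the log2 scale as FoxD1GC;Dicerfl/fl minus control, ran between -0.52 and 0.43 with a median of 0.05 (S phase 0.05, mitosis 0.04), and the median over all tested genes was 0.01. None of the 47 was past 1.5-fold, a size that 5.69% of all genes passed, and the median size of a change, without its sign, was 0.08 for members and 0.14 for all genes.

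The precision of the arrays sets what a miss of the threshold means. The standard error (SE) of a member's change had a median of 0.12 on the log2 scale (0.10 to 0.25). The 95% interval of the change, which is not adjusted for the number of genes, lay within 2-fold in both directions for 47 of 47 members and within 1.5-fold for 39 of 47, against 95.5% and 77.2% of all tested genes. The members with the widest intervals were Chek1, a checkpoint kinase (-0.54 to 0.66), Cdc25c, a phosphatase that activates Cdk1 (-0.50 to 0.46), Prim1, the primase (-0.37 to 0.56), and Cdc6, which loads the helicase (-0.53 to 0.38).

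**Figure D2:**
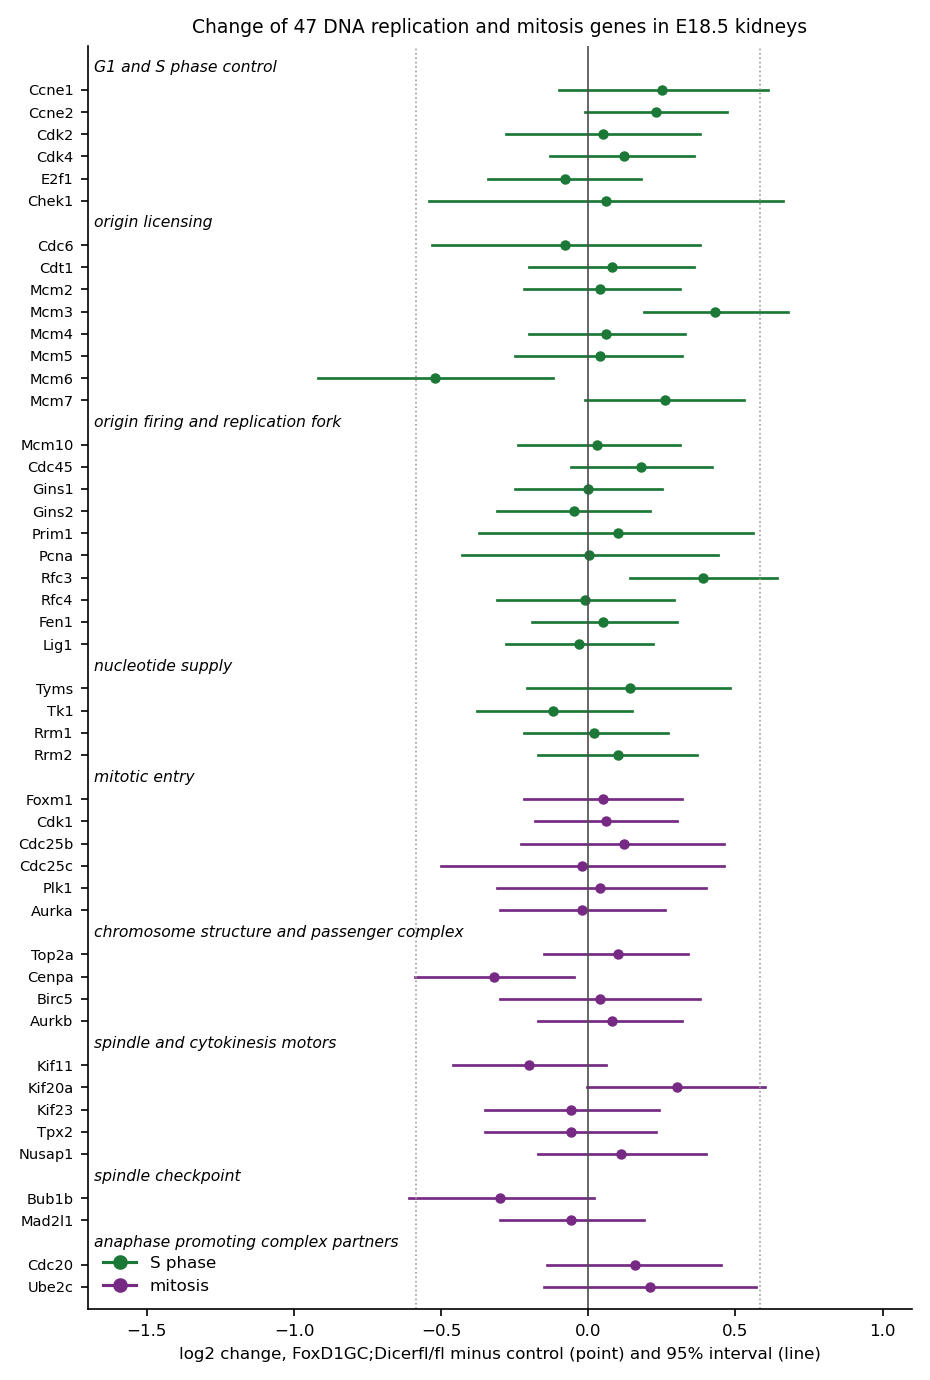
Log2 change of the 47 tested members, FoxD1GC;Dicerfl/fl minus control (points), with its 95% interval (lines), grouped by role, with S phase genes in green and mitotic genes in purple. The dotted lines stand at 1.5-fold lower and higher: every point lies between them, between -0.52 for Mcm6 and 0.43 for Mcm3, and the Kif20a probe was not detected in control pools.

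Among the genes that control the step into S phase, 0 of 6 passed the test, against 5.56% of all tested genes. With so few genes in a role, a count of 0 does not set the role apart from that share. The changes lay between -0.08 and 0.25. The 2 E cyclins, the partners of Cdk2, had the highest values, 0.25 ± 0.15 (SE) for Ccne1 and 0.23 ± 0.10 for Ccne2 (adjusted p = 0.40 and 0.27). Ccne2 stood at 6.61, 6.62 and 6.71 log2 units in the litter 1, 2 and 3 pools of mutant kidneys, and at 6.40, 6.34 and 6.50 in the control pools, so the groups did not overlap. Cdk4, the kinase of the D cyclins, did not overlap either, with a change of only 0.12 ± 0.10. E2f1, the factor that turns on much of the S phase program, had a change of -0.08 ± 0.11, and Cdk2 of 0.05 ± 0.14.

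The licensing genes held the highest and the lowest value of all members, both in subunits of 1 complex, the hexameric MCM helicase. Mcm3 was at 7.40, 7.32 and 7.36 log2 units in litters 1, 2 and 3 of mutant kidneys and at 6.91, 6.95 and 6.91 in the control pools. All 3 mutant pools lay above all 3 control pools, and the difference was 0.48, 0.38 and 0.44 in the 3 litters. The change of 0.43 ± 0.10, or 1.35-fold, missed the threshold (adjusted p = 0.067). Without litter as a block, Mcm3 passed it (adjusted p = 0.04), as it did without background correction (0.042, with a smaller change of 0.27) and when the probes of each gene were averaged (0.045), and over all alternatives its adjusted p was between 0.04 and 0.30. The change was 0.23 in the authors' processed values.

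Mcm6 was at 9.74, 8.97 and 9.50 in the mutant pools and at 10.16, 9.96 and 9.66 in the control pools. Each mutant pool was below the control pool of its own litter, but the groups overlapped, since the mutant pool of litter 1 was above the control pool of litter 3. The change was -0.52 ± 0.17 (adjusted p = 0.15), and -0.29 without litter 2, whose difference of -0.99 exceeded those of litters 1 and 3 (-0.42 and -0.15). A further pair of Mcm6 probes gave -0.44 ± 0.14 and -0.10 ± 0.11. With an intensity trend in the prior variance, Mcm6 passed the threshold (adjusted p = 0.036; 0.036 to 0.52 over the alternatives).

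Mcm7 was at 8.67, 8.62 and 8.97 in the mutant pools and 8.49, 8.49 and 8.51 in the control pools. The groups did not overlap, with a change of 0.26 ± 0.11 (adjusted p = 0.27) and 0.38 ± 0.11 from its dimmer probe (adjusted p = 0.10). Mcm2, used in many tissues as a proliferation marker, was at 8.66, 8.59 and 8.54 in mutant and 8.53, 8.46 and 8.68 in control pools, which overlapped, with a change of 0.04 ± 0.11. For Mcm4 the brightest probe gave 0.06 ± 0.11, whereas a dim probe, detected on 3 mutant arrays and 1 control array, gave 0.47 ± 0.10. That probe, with an adjusted p of 0.0499, was the 1 of 79 tested probes of members that passed the threshold. Of all 16899 tested probes, 823 passed it. The third Mcm4 probe gave 0.24 ± 0.11. The other licensing genes Mcm5, Cdt1 and Cdc6 had changes of 0.04, 0.08 and -0.08.

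**Figure D3:**
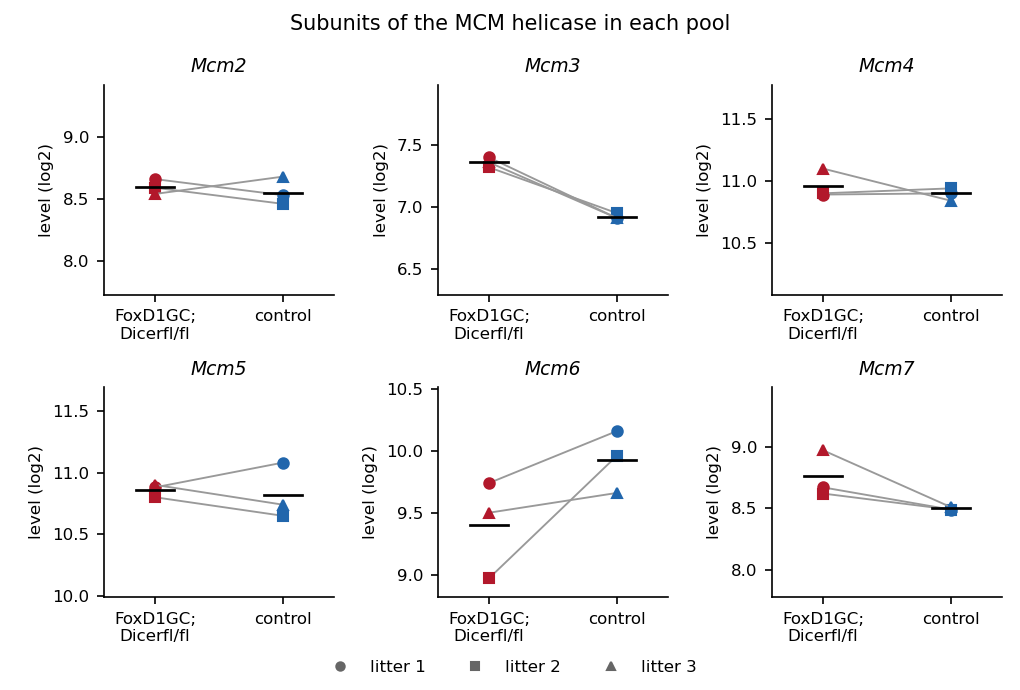
Level (log2) of the 6 subunits of the MCM helicase in each pool, FoxD1GC;Dicerfl/fl in red on the left and control in blue on the right of each panel, with lines that join the pools of a litter and bars for the group means. Each panel spans the same range of log2 units, and levels cannot be set against each other between panels. The pools of Mcm3 and Mcm7 do not overlap, with the mutant pools above, and those of Mcm6 overlap.

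At the replication fork 0 of 10 tested genes passed the threshold, against 5.56% of all tested genes. The median change of the 10 was 0.02. Rfc3, a subunit of the loader that places the sliding clamp on DNA, was at 6.47, 6.90 and 6.57 in the mutant pools and at 6.02, 6.45 and 6.29 in the control pools. Each mutant pool exceeded all the control pools, and the change was 0.39 ± 0.11 (adjusted p = 0.098; 0.07 to 0.41 over the alternatives). It was 0.20 without background correction and 0.16 in the authors' processed values. Rfc4, another subunit of the same loader, had a change of -0.01 ± 0.13. Pcna, the sliding clamp itself, was at 5.85, 5.76 and 6.45 in the mutant pools and 6.13, 6.04 and 5.88 in the control pools. The mutant pool of litter 3 was the highest and those of litters 1 and 2 the lowest, so its change of 0.003 ± 0.18 is the mean of litters that differ in sign, and its interval ran between -0.43 and 0.44. Cdc45, part of the active helicase, had non-overlapping groups and a change of 0.18 ± 0.10. Mcm10, Gins1, Gins2, Prim1, Fen1 and Lig1, which start and join DNA strands or travel with the helicase, were between -0.05 and 0.10.

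The 4 genes that supply deoxynucleotides were between -0.12 and 0.14, with the thymidine kinase Tk1 lowest and the thymidylate synthase Tyms highest. The ribonucleotide reductase subunits Rrm1 and Rrm2 had changes of 0.02 ± 0.10 and 0.10 ± 0.11. None of the 4 had the same sign in all 3 litters.

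Of the genes that start mitosis, 0 of 6 tested passed the threshold, against 5.56% of all tested genes. The changes lay between -0.02 and 0.12. Cdk1 was at 9.65, 9.77 and 9.49 in the mutant pools and 9.64, 9.70 and 9.38 in the control pools. The pools of a litter differed by at most 0.11 and the groups overlapped, with a change of 0.06 ± 0.10 and an interval of -0.18 to 0.30. Foxm1, the factor that activates mitotic genes, Plk1 and Aurka, the mitotic kinases, and Cdc25b and Cdc25c, the phosphatases that switch Cdk1 on, had changes of 0.05, 0.04, -0.02, 0.12 and -0.02 in that order. A second Cdc25c probe gave -0.33 ± 0.12 (adjusted p = 0.20).

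Chromosome proteins gave the lowest value in mitosis. Cenpa was at 11.80, 11.78 and 11.48 in the mutant pools and at 12.25, 11.92 and 11.87 in the control pools. All mutant pools were below all control pools, with a change of -0.32 ± 0.11 (adjusted p = 0.18). It passed the threshold without background correction (0.05 after rounding) and with an intensity trend (0.028), and its adjusted p ran up to 0.51 over the alternatives. Its dimmer probe gave -0.04 ± 0.18. Top2a, the topoisomerase that untangles chromosomes, was at 8.60, 8.79 and 8.70 in mutant and 8.50, 8.77 and 8.53 in control pools, which overlapped. Its change was 0.10 ± 0.10, and -0.24 ± 0.17 from a dimmer probe, so that the mean over its probes had the opposite sign (-0.07). Birc5 and Aurkb, both of the chromosomal passenger complex, had changes of 0.04 and 0.08.

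The spindle motors and their partners were between -0.20 and 0.30. Kif20a, a motor of cytokinesis, was at 5.23, 5.14 and 5.47 in the mutant pools and 5.13, 4.91 and 4.91 in the control pools, where no array detected it. After this background correction the mutant pools were at least 1.20-fold higher than the detection limit of the control pools, with a change of 0.30 ± 0.13 (adjusted p = 0.26). The change of Kif20a was 0.09 without background correction, 0.06 in the authors' processed values and 0.16 without litter 3. Kif11, the motor that pushes the spindle poles apart, had non-overlapping groups with the mutant pools lower (-0.20 ± 0.11, adjusted p = 0.38). Kif23, Tpx2 and Nusap1, which act at the midbody or on spindle microtubules, had changes of -0.06, -0.06 and 0.11.

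Of the spindle checkpoint, Bub1b was at 9.48, 9.70 and 9.04 in the mutant pools and 9.85, 9.69 and 9.56 in the control pools. The pools of litter 2 were alike and those of litters 1 and 3 differed by -0.38 and -0.52, with a change of -0.30 ± 0.13 (adjusted p = 0.28). Its dimmer probe gave 0.01 ± 0.12. Mad2l1, another checkpoint protein, had a change of -0.06 ± 0.10. Ube2c, the ubiquitin-conjugating enzyme of the anaphase promoting complex, was at 5.35, 5.14 and 5.75 in mutant and 4.87, 5.34 and 5.39 in control pools, detected on 3 and 2 arrays. Its groups overlapped, with a change of 0.21 ± 0.15 (adjusted p = 0.49), which was 0.07 without background correction, 0.05 in the authors' processed values and 0.08 without litter 1. Cdc20, which activates that complex, gave 0.16 ± 0.12.

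Of the 47 members, 9 had groups that did not overlap, against 25.8% of all tested genes. The mutant pools were the higher ones in 7 (Ccne2, Cdk4, Mcm3, Mcm7, Cdc45, Rfc3 and Kif20a), against 13.8% of all genes. They were the lower ones in 2 (Cenpa and Kif11), against 12.1%. Kif20a met the detection filter through the mutant pools alone, so the filter favoured its place on the higher side. Of the 28 tested S phase members, 6 had groups that did not overlap, against 25.8% of all tested genes. In all 6 the mutant pools were higher. The same sign in all 3 litters was seen in 14 of 47 members, against 44.1% of all genes. Of the 22 members with several tested probes, 11 had probes of opposite sign, and the same share over all genes is not given here. The median size of a member's change was 0.08, below the median SE of 0.12.

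As a group, the members differed in sign between litters. In litter 1, 17 of 47 members were higher in the mutant pool, in litter 2 31 and in litter 3 39, against 49.8%, 50.6% and 52.6% of all tested genes. The median difference was -0.12, 0.03 and 0.19 in litters 1, 2 and 3, against 0.02 or less in size for all genes. S phase members (-0.12, 0.08 and 0.18) and mitotic members (-0.12, 0.01 and 0.19) ran side by side. The order of the litters was not particular to the members. In the 129 tested cell cycle genes outside the list, described below, the medians were -0.03, 0.02 and 0.10. Of these genes 40.3%, 55.8% and 65.9% were higher in the mutant pool of litters 1, 2 and 3. Litter 1 gave the lowest of the 3 differences in 26 members, against 33.4% of all genes, and litter 3 the highest in 31, against 33.6%. The members do not vary independently, and these shares are a description.

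The pools show where this spread lay. The mean level over the 47 members was 8.44, 8.43 and 8.50 in the mutant pools of litters 1, 2 and 3, and 8.53, 8.39 and 8.32 in the control pools, or 8.46 ± 0.04 in FoxD1GC;Dicerfl/fl and 8.41 ± 0.11 in control kidneys (SD, n = 3 each). The control pool of litter 1 was the highest of the 6 and that of litter 3 the lowest. In the list of other mitotic genes described below, the control pools of litters 1, 2 and 3 fell in the same order (8.04, 7.92 and 7.73). For mitotic members alone the 3 mutant pools were all at 8.51, against 8.61, 8.51 and 8.38 in control pools. Leaving out litter 3 turned the median change to -0.03, and leaving out litter 1 gave 0.09, so that the sign of the median rested on litter 3. The Y-linked genes Eif2s3y and Kdm5d were near the detection limit in the mutant pool of litter 2 and well above it in the control pool (Eif2s3y was at 4.28 in the mutant and 8.43 in the control pool). Both genes were well above the limit in both pools of litter 1 (Eif2s3y at 8.21 in mutant and 8.50 in control). In both pools of litter 3 they were near it (4.28 and 4.38). The part of fetal sex in the differences of litter 2 and in the spread of the control pools was not tested.

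**Figure D4:**
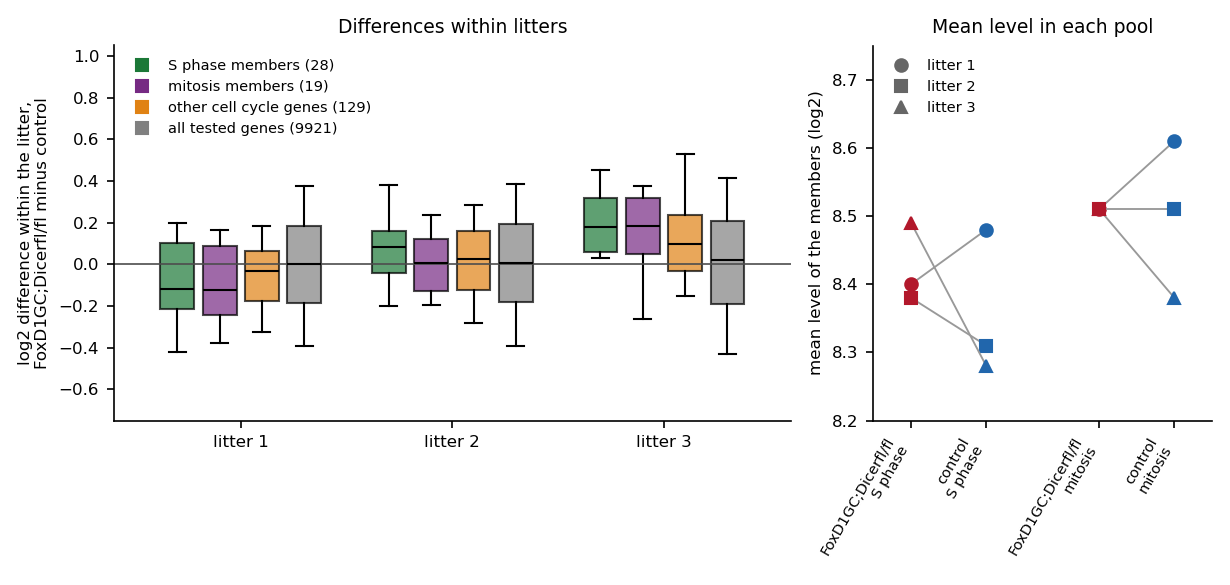
Left, log2 difference within each litter, FoxD1GC;Dicerfl/fl minus control, for S phase members, mitotic members, other cell cycle genes and all tested genes (boxes are quartiles with the median, whiskers the 10th and 90th percentiles). Right, mean level (log2) of S phase and mitotic members in each pool, mutant pools in red and control pools in blue, joined by litter. The median of the members was -0.12 in litter 1 and 0.19 in litter 3, and the control pools spread more widely than the mutant pools.

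Further cell cycle genes were read from lists that hold no member. Of 129 tested genes, 1 was called, Cdkn1a, against 5.56% of all genes. An unadjusted p under 0.05 was reached by 8 of the 129, against 20.2% of all tested genes. These 2 shares also stand beside the counts of the single lists below. The median change of the 129 genes was 0.01, and 128 of 129 had an interval within 2-fold, against 95.5% of all tested genes. Among 30 other replication genes, which include origin recognition, polymerase and RPA subunits, 0 were called in limma and 0 had an unadjusted p under 0.05. Among 66 other mitotic genes, such as kinetochore, condensin and cytokinesis proteins, 0 were called and 3 had an unadjusted p under 0.05. In the pocket proteins with E2F and DREAM factors 0 of 12 were called (1 at an unadjusted p under 0.05), and in the checkpoint and repair genes 0 of 12 (0 at an unadjusted p under 0.05).

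Cdkn1a, which encodes the Cdk inhibitor p21, was at 10.06, 10.27 and 10.04 in the mutant pools and at 9.22, 9.43 and 9.63 in the control pools. All mutant pools exceeded all control pools, and Cdkn1a rose 1.62-fold (log2 change 0.70 ± 0.13, adjusted p = 0.03). Without litter 1 or litter 2 the call was lost (adjusted p = 0.099 and 0.24, log2 change 0.63 and 0.62). It was also lost with no filter on dim probes (0.089) and under a B-statistic above 0. The methods used that criterion on values processed with lumi, whereas here it was applied to the reported fit. Its outcome here is therefore not that of the study. Over the alternatives the adjusted p of Cdkn1a was 0.0013 to 0.24. Cdkn1c, which encodes p57, was at 13.40, 13.26 and 13.20 in the mutant pools and 13.81, 13.55 and 13.51 in the control pools, which did not overlap. Its change of -0.34 ± 0.10 missed the threshold (adjusted p = 0.13), which it passed without background correction (0.021), in the authors' processed values (0.022) and with an intensity trend (0.0062). Of 6 tested genes in the list of Cdk inhibitors, 4 had an unadjusted p under 0.05, against 20.2% of all tested genes, and they differed in direction. Beside Cdkn1a and Cdkn1c these were Cdkn2b, which encodes p15 (0.46 ± 0.13, adjusted p = 0.11), and Cdkn2c, which encodes p18 (-0.38 ± 0.12, adjusted p = 0.15), both named after their values were seen. Cdkn2b was dim and near the detection limit, at 5.86, 5.25 and 5.56 in the mutant pools and 5.23, 5.09 and 4.97 in the control pools. Cdkn1b, which encodes p27, had probes detected on 1 array at most and was not tested. The D cyclins, which couple growth signals to Cdk4, had changes of -0.02 ± 0.10 for Ccnd1, -0.22 ± 0.12 for Ccnd2 and 0.12 ± 0.13 for Ccnd3. Of these 3, 0 passed the threshold, against 5.56% of all tested genes (0 at an unadjusted p under 0.05).

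Markers of several cell types differed between the same pools. Macrophage markers were called higher in 8 of 9 tested genes (mean level 7.22 to 7.32 in mutant pools and 6.16 to 6.35 in control pools). Neutrophil markers were called higher in 3 of 4 tested genes, of 8 listed. Markers of the proximal tubule were called lower in 8 of 10 (8.18 to 8.67 in mutant pools and 9.25 to 9.86 in control pools), of the renal stroma in 4 of 11 (8.13 to 8.47 in mutant and 8.92 to 8.99 in control pools) and of pericytes, mesangium and smooth muscle in 5 of 9 (6.66 to 7.26 in mutant and 7.37 to 7.51 in control pools). Of 13 nephron progenitor markers 2 were called higher and 1 lower. Of 8 ureteric bud and collecting duct markers 1 was called higher and 1 lower. In the loop of Henle and distal tubule 1 of 6 was called, lower. That gene, Pvalb, was at 4.50, 4.51 and 5.10 in the mutant pools, near the detection limit. It may thus have met the detection filter through the control pools alone. The same may hold for Slc5a2 among the proximal tubule calls (4.37, 4.90 and 4.33 in mutant pools). Retnlg, a neutrophil call, was as low in the control pools (4.63, 4.68 and 4.47). Detection by group is not given here for the markers. Podocyte (0 of 4), endothelial (0 of 7) and erythroid (0 of 6) markers had no call. In either direction, 5.56% of all tested genes were called. Dicer1, the gene deleted in the stroma, was at 6.96, 7.40 and 7.13 in mutant and 7.43, 7.58 and 7.31 in control pools (-0.28 ± 0.11, adjusted p = 0.24). Dicer1 had 2 tested probes, and these values are from the brighter one, while those of the other are not given here. Whether either probe reads the deleted exon is unknown, and neither checks the deletion. The part of these cell types in the levels of the members, and in that of Cdkn1a, was not tested.

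**Figure D5:**
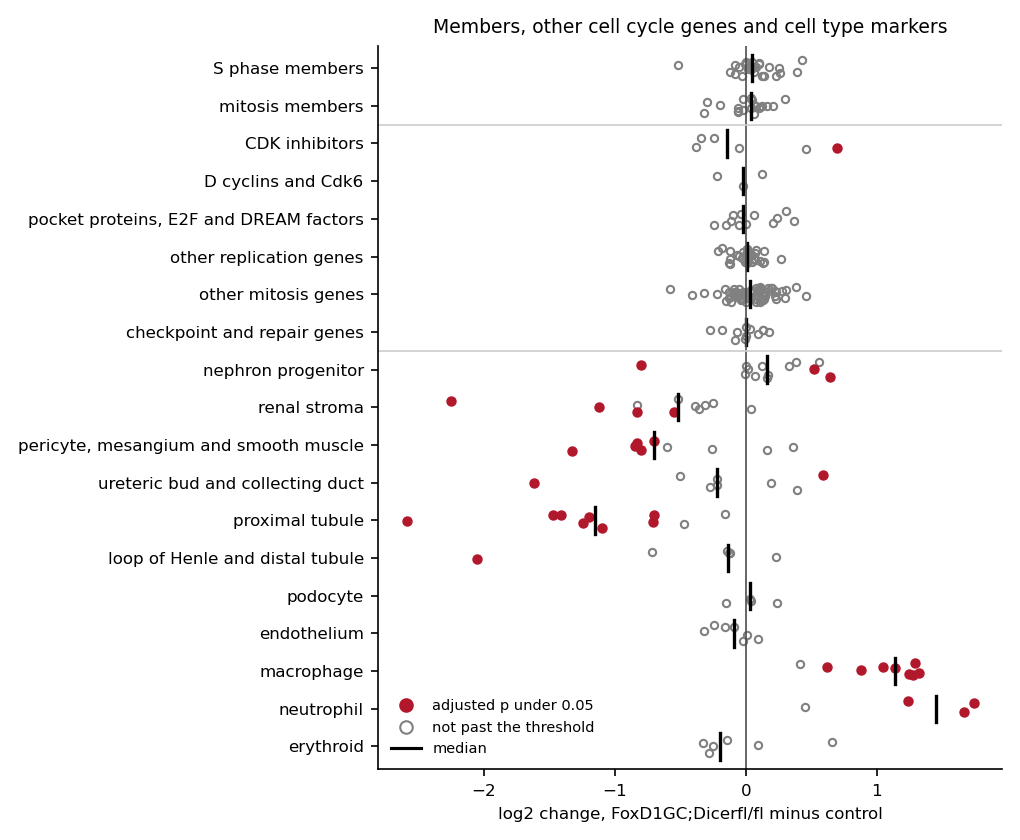
Log2 change, FoxD1GC;Dicerfl/fl minus control, of each tested gene (circles) in the 2 groups of members, in 6 lists of other cell cycle genes and in 11 lists of cell type markers, with list medians as bars and genes past an adjusted p of 0.05 in red. Of the members and other cell cycle genes only Cdkn1a (0.70) is red, whereas macrophage markers reach 1.32 and proximal tubule markers -2.59.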

How the data were processed

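Total RNA of whole E18.5 kidneys was measured on 6 arrays, 3 FoxD1GC;Dicerfl/fl and 3 control pools, with genotype and litter taken from the labels. Per the file headers, the deposited table held for each probe a signal intensity on a linear scale, neither background-corrected nor normalized, and a detection p-value against negative-control beads. The authors also deposited processed log2 values, made with lumi according to the methods, which served as an alternative. Of 45281 rows, 8 were damaged and left out. The probe annotation gave 1 symbol to 34877 of the 45273 probes kept, several to 18 and none to 10378, and 34799 were found by gene ID in RefSeq (GRCm38.p6). Between 16154 and 17051 probes were detected per array (35.7% to 37.7%), and the median intensity was 100.3 to 107.6.

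Intensities were corrected and quantile normalized with neqc (limma 3.58.1, R 4.3.3, offset 16, which shrinks the change of dim probes). Probes with a detection p under 0.01 on at least 3 arrays (16899 probes, 9921 genes) were fitted with lmFit and eBayes, with a term for the litter, which the methods also used (2 residual and 4.76 prior degrees of freedom), and an adjusted p is the Benjamini-Hochberg value over these probes from that fit, unless an alternative setting is named beside it, when it comes from the refit under that setting. Pools of 1 litter deviated together (correlation of deviations 0.19, 0.18 and 0.14, against -0.13 to -0.01 for other pairs). The brightest tested probe stood for a gene, which was called when that probe had an adjusted p under 0.05. The 3 pools per genotype are separate embryos. A fold written as "at least" compares the detected group with, per array, the higher of the lowest detected level and the probe's own.

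The members and lists were chosen with earlier results of these data known. Values by pool are given for members past the threshold, the 4 largest changes of each phase (by size) and, where tested, Mki67, Pcna, Top2a, Cdk1, Ccnb1 and Mcm2. Of the other cell cycle lists, called genes, Cdkn1a to Cdkn1c and the D cyclins are named. Values of Ccne2, Cdk4, Kif11 and other members were chosen after they were seen, because their groups did not overlap or to fill out a role. Pvalb, Slc5a2 and Retnlg are named because a group of pools was near the detection limit. Promoters were the RefSeq window listed first for each gene.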

Additional observations from a re-analysis of the deposited data

How the results depend on the processing

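With 3 pools per genotype, the number of arrays limits the precision. Members called were 0 in the reported fit and with median scaling, the authors' processed values, no filter on dim probes (of 53 members), detection on all 6 arrays (of 44 members), a B-statistic above 0 and without any 1 litter (0 to 0). With no replicate block 1 member was called (Mcm3, 1 S phase and 0 mitotic), and 1 was called with the mean of tested probes (Mcm3). Without background correction 2 were called (1 S phase, Mcm3, and 1 mitotic, Cenpa), and with an intensity trend 2 (1 S phase, Mcm6, and 1 mitotic, Cenpa). The block on the litter changed no other call of a member. The median change of the members was 0.04 to 0.05 in the other alternatives and -0.03 to 0.09 with 1 litter left out (S phase -0.03 to 0.15, mitosis -0.08 to 0.08). Of the other cell cycle genes, 1 was called in the reported fit, 4 without background correction and 4 with an intensity trend (Cdkn1a, Cdkn1c, Cenpm and E2f6), 2 in the authors' values, 0 with no filter on dim probes, 0 by the B-statistic (Cdkn1a was lost) and 0 to 2 with 1 litter left out. Of all genes, 552 were called in the reported fit, 265 with no filter on dim probes, 865 with an intensity trend, 343 by the B-statistic and 44 to 538 with 1 litter left out (44 without litter 2). Of 130 refitted values of the 12 members that the naming rule gave by pool (Ccne2 was not among them), 120 kept sign and side of the threshold, 6 passed it and 4 changed sign: Mcm2 (-0.0002 without litter 1 and -0.002 without litter 2; -0.002 to 0.13 over the litters left out), Pcna (-0.28 without litter 3; -0.28 to 0.14) and Top2a (-0.07 with the mean of tested probes). Ccnd1 changed sign without litter 3 (0.01; -0.06 to 0.01 over the litters left out) and with the mean of tested probes (0.06), and Ccnd3 without litter 1 (-0.01; -0.01 to 0.22). The causes were not tested.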
